A study of Mus musculus with 6 samples.

Results

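The olfactory bulb was compared 24 h after a single dose into the nose of PAMAM dendrimers at 0.15 mg/kg or of saline. All mice were males of the inbred strain BALB/c and were 8 weeks old. PAMAM dendrimers are highly branched polyamidoamine polymers built to carry drugs or nucleic acids. The study covered 3 brain regions, and the olfactory bulb gives 2 of its 6 arrays: 1 PAMAM array and 1 saline array, each hybridised with RNA pooled from 6 independent experiments. The remaining arrays hold hippocampus and cortex after PAMAM or saline. With 1 array a side, a difference has no replicate check, so sizes are described and no p-value is given.

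The olfactory bulb is the first relay of smell in the brain and receives the axons of sensory neurons that line the nasal cavity. Its mitral and tufted cells pass the signal on, while granule and periglomerular interneurons shape it. Neurons that fire switch on immediate-early genes within minutes, among them the transcription factors Fos, Egr1 and Npas4. Their products then drive slower effector genes such as Bdnf and Nptx2. The endoplasmic reticulum (ER), where secreted and membrane proteins fold, answers misfolded protein through factors including ATF6, XBP1 and ATF4, which raise chaperone and other stress genes.

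Levels are given as scaled signal, the background-corrected processed signal divided by its array's 75th percentile, so that 1 is that percentile. Differences are log2 values, PAMAM minus saline. A probe was measured if both arrays read it well above background, and the value of a gene is the median over its measured probes. A gene is called bright where it exceeded the median detected probe on both arrays. Of 55681 probes, 33578 were measured, and they represent 23329 genes or unnamed transcripts. Of 59305 non-control spots, 39057 on the PAMAM array and 36614 on the saline array were well above background. Of 300 measured probes spotted 10 times an array, the median SE of the difference from spot noise was 0.03, and the median SD for a single spot was 0.09. That noise leaves out labelling, hybridisation and animals. The region label held on both arrays: all 16 markers of granule cells were higher there than the mean of hippocampus and cortex. Their median differences were 2.03 for PAMAM and 2.04 for saline. Other neuronal lists were less uniform. On both arrays, mitral and tufted cell markers were higher in 8 of 12 and sensory neuron axon markers in 8 of 15.

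Few transcripts differed by much. With PAMAM, 23 probes (0.0685%) were higher by 2-fold or more and 80 (0.238%) were lower by as much. Of the bright probes, 1 was that much higher and 8 that much lower. With another background correction (normexp), whose offset shrinks dim values, the counts were 9 higher and 25 lower. Counted by gene, 114 (0.489%) were higher by 1.5-fold or more and 325 (1.39%) were lower by that much, while 48.1% of genes lay above 0. The median gene difference was -0.01 and the median size 0.09. Spread depended on signal: the 95th percentile of the absolute difference was 0.75 in the dimmest of 10 equal classes of probes, which held 380 probes past 1.5-fold, and 0.19 in the brightest, which held 3.

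**Figure D1:**
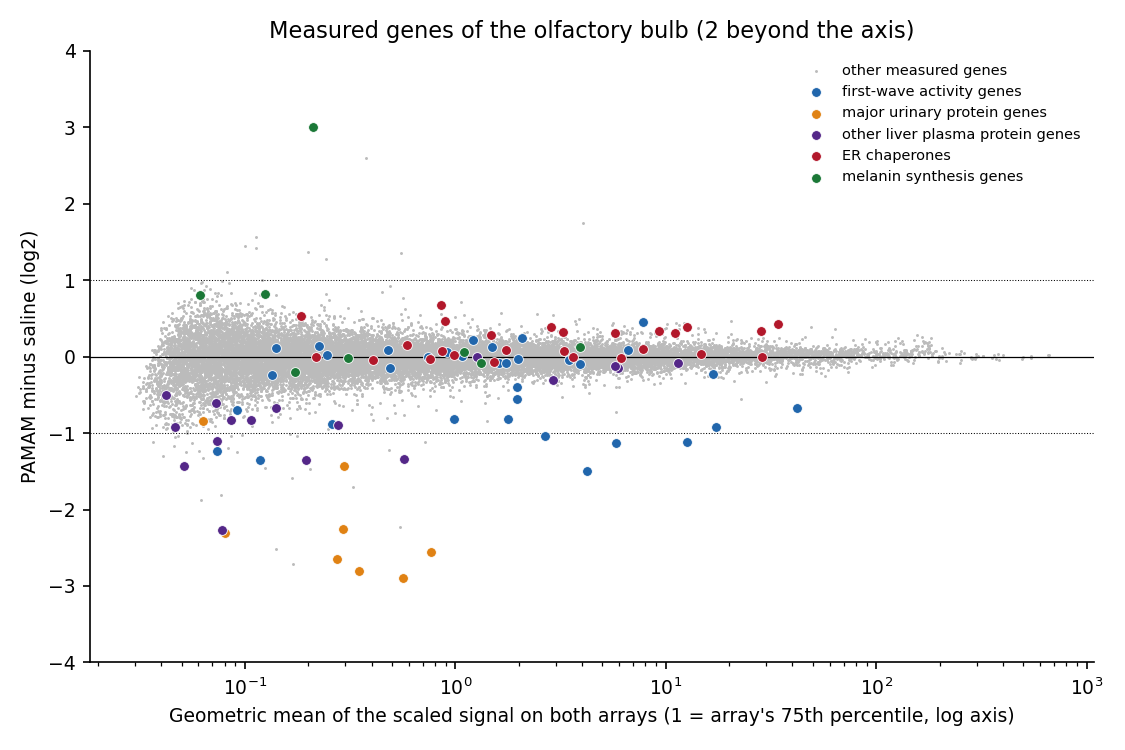
Each point is a measured gene of the olfactory bulb, with the geometric mean of its scaled signal on both arrays on a log axis and its log2 difference, PAMAM minus saline, on the vertical axis. Dotted lines mark 2-fold. The 12 first-wave genes lower by 1.5-fold or more lie between -1.49 and -0.67, and major urinary protein genes lie between -2.89 and -0.85.

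Several first-wave activity genes were more than 2-fold lower with PAMAM on bright probes. Egr4, a zinc finger transcription factor, had a scaled signal of 2.51 on the PAMAM array and 7.07 on the saline array, a difference of -1.49. Npas4, a factor induced by calcium entry that adjusts inhibitory synapses, had 3.92 with PAMAM and 8.56 with saline, a difference of -1.13. Arc, which moves AMPA receptors out of synapses, had 8.59 with PAMAM and 18.6 with saline, a difference of -1.11. Fos, a partner in the AP-1 factor, had 1.86 with PAMAM and 3.82 with saline, a difference of -1.04 (SE 0.02 over 10 spots, chromosome 12 at 86817900 to 86817959 in mm9). Egr1 had 12.6 with PAMAM and 23.7 with saline, a difference of -0.91. In bulk tissue, fewer cells of a type and less RNA per cell cannot be told apart.

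The list of first-wave genes has 37 members, of which 34 were measured. With PAMAM 23 were lower and 11 higher, with a median of -0.12 beside -0.01 over all genes. At least 1.5-fold lower were 12 members, against 1.39% of all measured genes, and 0 were at least 1.5-fold higher. Beside the 5 genes above, these were Junb (-1.36), Nr4a3 (-1.24, SE 0.09 over 10 spots), Atf3 (-0.89), Fosb (-0.82), Btg2 (-0.81), Ier2 (-0.70) and Nr4a1 (-0.67). Junb had 0.0735 with PAMAM and 0.188 with saline, and Nr4a3 had 0.0476 with PAMAM and 0.113 with saline, so both rest on dim probes. With normexp background Junb was at -0.85, Nr4a3 at -0.59 and Ier2 at -0.38. The orphan nuclear receptor Nr4a1 had 33.4 with PAMAM and 53.4 with saline. Of the 12, 8 were bright.

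By family, all 6 measured Egr and Nr4a genes were lower (median -0.79), with Egr2 (-0.56) and Nr4a2 (-0.40) closest to 0. Egr2 lies just short of 1.5-fold, with 1.61 for PAMAM and 2.37 for saline. The Fos and Jun family was split, with a median of -0.52 over 6 genes, and of -0.23 with bright probes only. Jun, the common AP-1 partner, was the largest higher value of the whole first-wave list, with 9.11 on the PAMAM array and 6.66 on the saline array (0.45). Jund, which is less dependent on activity, was at -0.23 and Fosl2 at 0.09. Krüppel-like factors ran the other way from Egr and Nr4a: of 13 measured Klf genes 11 were higher (median 0.09), with Klf5 at 0.37, Klf2 at 0.25 and Klf10 at 0.21. Dusp1 (-0.08), a phosphatase of MAP kinases, and Ppp1r15a (-0.04), which restarts translation after stress, stayed near 0.

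Promoter letters were read for these genes, because several are known targets of the cAMP response element binding protein CREB. The CREB core TGACGT, on either strand, was found in the promoter windows (250 bases before to 50 after the start) of 6 of the 9 lower first-wave genes with an entry, which are Fos, Egr4, Nr4a3, Npas4, Btg2 and Atf3. It was found in 6 of 19 other measured first-wave genes, in 7 of 22 ER chaperone genes and in 8.37% of all 27025 promoters. The full palindrome TGACGTCA, which contains the core, was in 1 of the 9, Btg2, in 3 of the 19 others and in 2.03% of all promoters. The CArG box bound by serum response factor was in 0 of the 9, in 2 of the 19 others (Egr2 and Dusp5) and in 1.81% of all promoters. A match is a description of letters in this window. The windows of Npas4 (chr19:4989922-4990221, minus strand), Btg2 (chr1:134079106-134079405, minus strand) and Fos (chr12:85473640-85473939, plus strand) are shown from RefSeq, build GRCm38.p6, 5′ to 3′ in the gene's direction, with each match in capitals.
Npas4: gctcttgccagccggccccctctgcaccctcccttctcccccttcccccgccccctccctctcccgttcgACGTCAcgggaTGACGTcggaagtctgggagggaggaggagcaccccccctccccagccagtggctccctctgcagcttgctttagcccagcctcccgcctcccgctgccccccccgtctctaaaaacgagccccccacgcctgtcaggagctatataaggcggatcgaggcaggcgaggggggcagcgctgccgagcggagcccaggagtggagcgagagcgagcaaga
Btg2: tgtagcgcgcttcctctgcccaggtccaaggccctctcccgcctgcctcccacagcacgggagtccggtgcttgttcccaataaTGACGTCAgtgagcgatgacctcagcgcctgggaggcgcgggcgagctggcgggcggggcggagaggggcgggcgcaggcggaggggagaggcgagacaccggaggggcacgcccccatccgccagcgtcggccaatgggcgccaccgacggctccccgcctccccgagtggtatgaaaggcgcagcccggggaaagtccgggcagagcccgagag
Fos: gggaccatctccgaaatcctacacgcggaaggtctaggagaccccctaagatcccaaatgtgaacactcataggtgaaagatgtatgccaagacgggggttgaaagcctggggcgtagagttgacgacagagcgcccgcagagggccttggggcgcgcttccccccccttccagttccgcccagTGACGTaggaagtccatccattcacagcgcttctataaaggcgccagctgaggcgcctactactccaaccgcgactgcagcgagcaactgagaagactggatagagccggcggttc

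The genes that follow the first wave did not share its direction. Of 26 measured later effectors 22 were higher and 4 lower, with a median of 0.10 and 0 past 1.5-fold either way. Crh, the stress peptide corticotropin-releasing hormone, which bulb interneurons also make, had 3.53 with PAMAM and 2.42 with saline (0.54). Vgf, a precursor of secreted peptides, had 23.3 with PAMAM and 20.1 with saline (0.21). The prohormone convertase gene Pcsk1 was at 0.38, the synaptic pentraxin genes Nptx1 at 0.46 (dim, and 0.14 with normexp background) and Nptx2 at 0.22, and Bdnf at 0.15. The 4 lower members were the peptide genes Sst (-0.21), Npy (-0.09) and Penk (-0.03) and Rasgrp1 (-0.03).

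**Figure D2:**
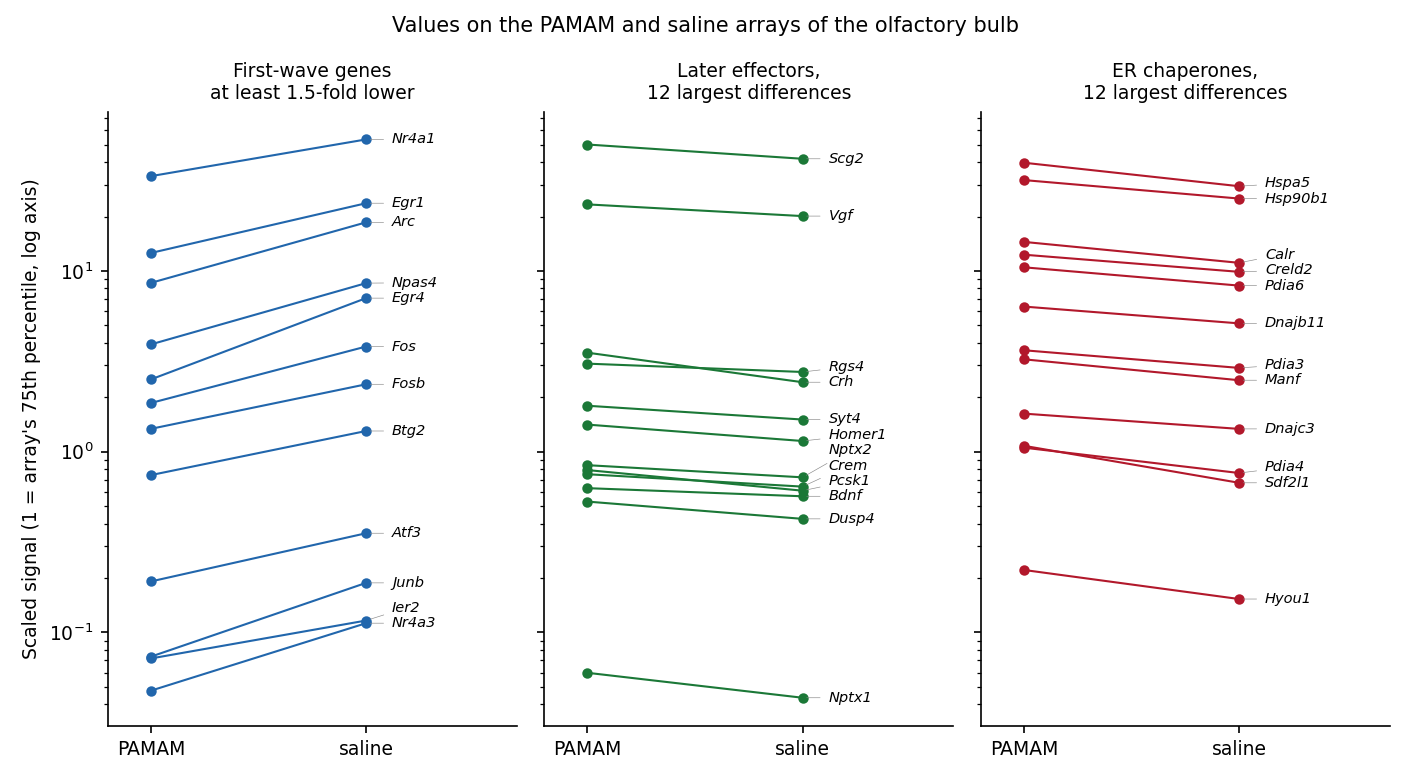
Scaled signal (log axis) of single genes on the PAMAM array, at the left of each panel, and on the saline array, at the right, joined by lines. The panels hold the 12 first-wave genes lower by 1.5-fold or more, and the 12 largest higher differences among later effectors and among ER chaperones, picked by size.

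The same lists in the other regions put these values in context. Over the 31 first-wave genes measured in every region, the median difference was -0.09 in the bulb, against 0.18 in hippocampus and 0.16 in cortex. Over 25 later effectors it was 0.11 in the bulb, 0.17 in hippocampus and 0.25 in cortex. Of the 12 genes at least 1.5-fold lower in the bulb, 7 of 12 measured in the hippocampus and 5 of 10 in the cortex were lower there too. Arc was at 0.43 in the hippocampus and 0.07 in the cortex. Egr4 was at -0.25 in the hippocampus and -0.02 in the cortex. Fos (-0.36 and -0.32) and Npas4 (-0.63 and -0.41) were lower in both of those regions. On the 6 arrays Npas4 reached 8.56 in saline bulb, the highest of its values, and was lowest in PAMAM hippocampus, at 2.65. The differences between regions were not tested.

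**Figure D3:**
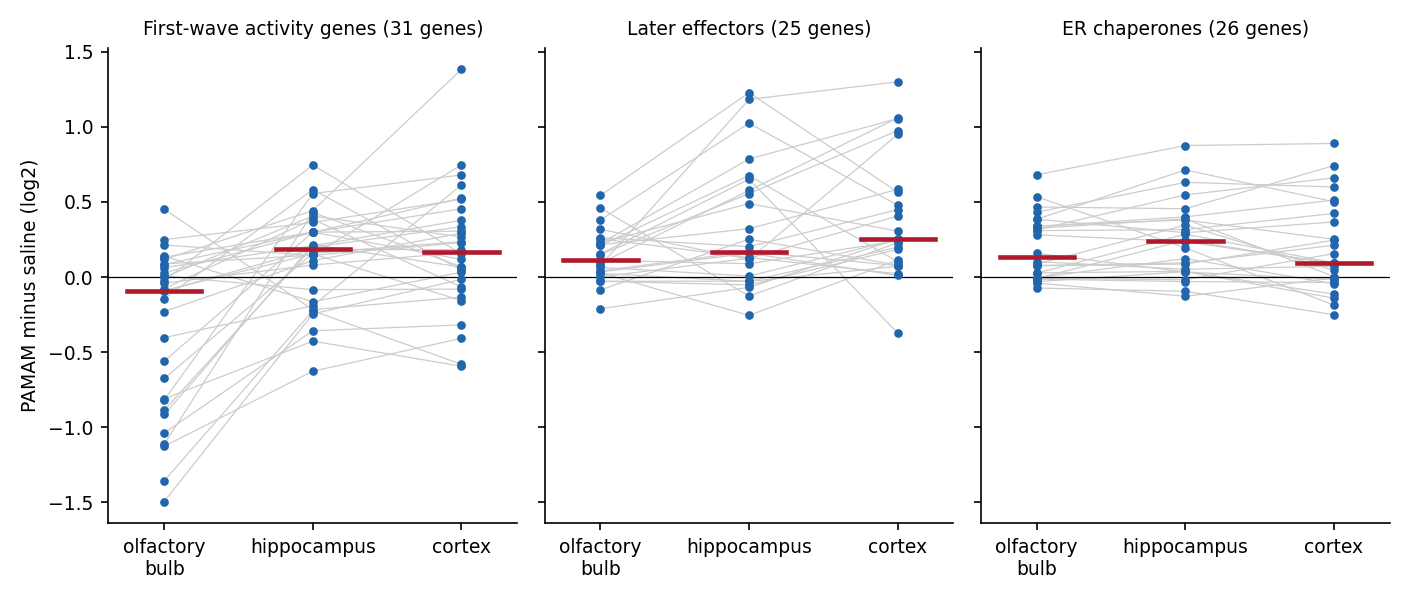
Log2 difference, PAMAM minus saline, of each gene (blue points, joined by grey lines) in each region, for first-wave genes, later effectors and ER chaperones measured in all 3 regions. Red bars are medians, which for the first-wave genes are -0.09 in the bulb, 0.18 in hippocampus and 0.16 in cortex.

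ER chaperones were higher, by smaller steps than the first-wave genes were lower. Of 26 measured members 19 were higher (median 0.13), 12 of them between 0.28 and 0.68. Hspa5, the master chaperone BiP, had 39.7 with PAMAM and 29.4 with saline, a difference of 0.43. Sdf2l1, part of a BiP co-chaperone complex, had 1.08 with PAMAM and 0.673 with saline (0.68) and was the only member past 1.5-fold. The lectin chaperone Calr had 14.5 with PAMAM and 11.1 with saline (0.38). Creld2, a putative disulfide isomerase, had 12.3 with PAMAM and 9.89 with saline (0.32, SE 0.02 over 10 spots). Manf, secreted under ER stress, was at 0.38, the disulfide isomerases Pdia4, Pdia6 and Pdia3 were at 0.47, 0.34 and 0.32, and Hsp90b1 was at 0.34. Canx (-0.01), P4hb (0.00), Dnajb9 (-0.03) and Ero1a (-0.01) lay near 0.

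Promoters of the chaperone genes were read for the ER stress element, the site of ATF6. It was searched as CCAAT, then any 9 bases, then CCACG, on either strand. It was in the promoter windows of 8 of 22 chaperone genes with an entry (Hspa5, Hsp90b1, Calr, Canx, Pdia6, Creld2, Dnajc3 and Ero1b) and in 37 of 27025 promoters (0.137%). Of those 8 genes 7 were higher, with a median of 0.33. Of the 14 without it 9 were higher, with a median of 0.08 and a range from -0.07 to 0.68. Sdf2l1, the largest value, is among those without it. None of 24 heat shock genes had the element in its window. A match describes letters in the window, and whether ATF6 acted on these genes was not tested. The windows of Hspa5 (chr2:34771840-34772139, plus strand) and Creld2 (chr15:88819396-88819695, plus strand) are shown from RefSeq, build GRCm38.p6, 5′ to 3′, with the element in capitals; in Creld2 it lies on the opposite strand.
Hspa5: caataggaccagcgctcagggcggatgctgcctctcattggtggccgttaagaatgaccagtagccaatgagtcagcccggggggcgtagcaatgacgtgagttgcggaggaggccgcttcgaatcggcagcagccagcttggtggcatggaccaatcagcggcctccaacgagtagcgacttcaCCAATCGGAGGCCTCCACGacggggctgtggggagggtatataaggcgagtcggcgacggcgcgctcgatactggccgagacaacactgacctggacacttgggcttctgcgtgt
Creld2: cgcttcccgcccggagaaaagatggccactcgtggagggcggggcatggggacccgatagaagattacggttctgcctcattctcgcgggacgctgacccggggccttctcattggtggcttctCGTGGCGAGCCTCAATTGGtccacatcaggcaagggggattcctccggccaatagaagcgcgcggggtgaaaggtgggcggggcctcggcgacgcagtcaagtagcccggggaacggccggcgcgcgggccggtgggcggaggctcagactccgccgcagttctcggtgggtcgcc

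The branches around the chaperones differed in direction. ER export, quality control and degradation genes were higher in 30 of 38 members (median 0.08), with Derl3, a channel component of ER degradation, at 0.43, Ostc at 0.30 and the stress factor Xbp1 at 0.23. ATF4 targets were not: 8 of 25 were higher (median -0.04), with Trib3 at -0.45, Atf5 at -0.20 and Ddit4 at -0.16, against Slc7a1 at 0.21 and Ddit3 (CHOP) at 0.13. Cytosolic and mitochondrial heat shock proteins were higher in 25 of 31 (median 0.11). Of these, the small chaperone Hspb1 had 6.41 with PAMAM and 4.83 with saline (0.41), and Hsph1, a nucleotide exchange factor, was at 0.36 over 2 probes (0.31 and 0.42). Hsf2 (-0.37), Hspb6 (-0.31) and Hspa2 (-0.24) were the lowest. Over the 26 measured ER chaperones, 22 were higher in the hippocampus (median 0.24) and 18 in the cortex (median 0.09). The 12 chaperones between 0.28 and 0.68 in the bulb, picked by their bulb values, had a bulb median of 0.36. Of these, 12 of 12 were higher in the hippocampus (median 0.39) and 11 of 12 in the cortex (median 0.46). Sdf2l1 stood at 0.88 in the hippocampus and 0.89 in the cortex.

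Major urinary protein (Mup) genes, whose secreted products bind pheromones and come largely from liver, had the lowest median of the 85 families. All 8 that were measured were lower with PAMAM by 1.5-fold or more, with a median of -2.43. Mup18 had 0.206 on the PAMAM array and 1.53 on the saline array, a difference of -2.89. Mup19 had 0.315 with PAMAM and 1.85 with saline (-2.55), and Mup4 had 0.133 with PAMAM and 0.635 with saline (-2.25, and -1.39 with its dim probe included). The smallest difference of the family was that of Mup21 (-0.85, and -0.42 with normexp background). None of the 8 was bright on both arrays. Of the other 3 family members on the array, Mup20 was at least 8.61-fold lower on one probe and at least 2.42-fold on another, Mup3 was at least 3.84-fold lower, and Mup6 was above background on neither array. These bounds divide the bright array's value by the lowest value well above background on the dim array, or by the dim probe's own value where that is higher.

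Genes of a liver list were lower as well. It holds plasma proteins, and also genes such as Fabp1 and Cyp2e1 whose products stay in cells. Of 17 measured 17 were lower (median -0.83), 11 of them at least 1.5-fold, against 1.39% of all genes. With normexp background the median was -0.36, and Fabp1 was at -1.08, F2 at -0.52, Hp at -0.58 and Cyp2e1 at -0.49. Fabp1, a fatty acid carrier, had 0.0355 with PAMAM and 0.171 with saline (-2.27). Serpina1c, a copy of alpha-1 antitrypsin, had 0.359 with PAMAM and 0.909 with saline (-1.34). The prothrombin gene F2 was at -1.43, haptoglobin (Hp) at -1.10 and Cyp2e1 at -0.83. Albumin (Alb) was at least 4.48-fold and fetuin A (Ahsg) at least 6.45-fold lower. The 5 bright members lay closer to 0, with a median of -0.12: Apoc1 -0.31, Apoa2 -0.15, Amy1 -0.12, transferrin (Trf) -0.09 and Rbp4 -0.01. A second Apoa2 probe was at least 7.61-fold lower, so the probes of this gene disagree. Apoc3 had probes at -1.31 and -0.04.

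The saline arrays carried the higher Mup values in every region. Mup18 had 0.206, 0.254 and 0.312 on the PAMAM arrays of bulb, hippocampus and cortex, against 1.53, 0.748 and 0.490 on the saline arrays of the same regions. Mup18 had the largest bulb difference of the measured Mup genes, and how many other genes order the 6 arrays by treatment was not counted. Over the Mup genes measured, the median difference was -1.35 in the hippocampus and -0.49 in the cortex, with 7 of 7 lower in each. Liver list genes were split: 6 of 13 were higher in the hippocampus (median -0.14) and 6 of 11 in the cortex (median 0.15). Serpina1c was at -0.47 in the hippocampus and 0.62 in the cortex. Whether RNA of another tissue entered the pools was not tested. Mup copies are near-identical: the probes of Mup17 and Mup18, on chromosome 4, share a stretch of 35 bases, and those of Serpina1a, Serpina1c and Serpina1e, on chromosome 12, share 29 bases, so a probe cannot be tied to one copy. A 30-base piece of the Mup stretch and the whole Serpina1 stretch are shown because they carry that limit.
Mup17 and Mup18: ctaggatacctcatcaagaatcaaagactt
Serpina1a, Serpina1c and Serpina1e: gtcatccttccttctgaattgggttcctt

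Probes around a ribosomal RNA unit were lower along the whole locus. Cells cut 18S and 28S ribosomal RNA out of one long precursor, whose spacers are then destroyed. The files place the 18S ribosomal RNA gene Rn18s on mm9 chromosome 17, and 23 probes with starts and ends between 39980297 and 39985688 were measured there. Of these 22 were lower with PAMAM, from -0.76 to -0.13, and the median over all 23 was -0.49. The exception was the probe of mature 18S RNA, with 664 on the PAMAM array and 656 on the saline array (0.02). The lowest probe, on the forward strand, had 3.24 with PAMAM and 5.50 with saline (-0.76). All 10 probes named for the reverse strand were lower as well, between -0.56 and -0.36. A separate probe of 28S RNA, Rn28s1, was at -0.11 (113 with PAMAM and 122 with saline).

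In the hippocampus 22 of the 23 probes were lower, with a median of -0.20, and in the cortex 14, with a median of -0.06. Several of the 23 probes overlap, and further ribosomal RNA copies lie elsewhere in the genome, so the signal cannot be assigned to this one. The probes that carry the contrast are shown, 5′ to 3′ as in the array file. Capitals mark the 37 bases that the reverse-strand probes at chr17:39980799-39980858 and chr17:39980822-39980881 share; the other lines are the lowest probe, at chr17:39983098-39983157, and the 18S probe at chr17:39985058-39985117, all in mm9.
Reverse-strand probe (-0.53): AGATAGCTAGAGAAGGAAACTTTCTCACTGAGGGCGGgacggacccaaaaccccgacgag
Overlapping reverse-strand probe (-0.54): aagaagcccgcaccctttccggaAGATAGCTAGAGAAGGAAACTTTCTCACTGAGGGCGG
Forward-strand probe (-0.76): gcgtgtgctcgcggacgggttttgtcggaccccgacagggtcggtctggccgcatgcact
Rn18s probe (0.02): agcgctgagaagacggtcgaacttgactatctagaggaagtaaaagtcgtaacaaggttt

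An unnamed RNA between the long non-coding RNA genes Malat1 and Neat1 was higher. The array names it only by its place on the reverse strand of chromosome 19. Its 3 probes had 0.442, 0.380 and 0.225 on the PAMAM array and 0.212, 0.155 and 0.0930 on the saline array. The differences were 1.06, 1.30 and 1.27. None of the 3 probes was bright, and with normexp background the RNA was at 0.78. They were higher in hippocampus (1.06 to 1.07) and cortex (0.69 to 1.03) as well. Its named neighbours did not share that direction. Neat1, the scaffold of nuclear paraspeckles, had 6 probes between -0.38 and -0.28, and 4 probes named Malat1 or Neat2, between 5795713 and 5795892, lay between -0.21 and -0.10. Another 6 reverse-strand probes from 5798256 to 5802326 lay between -0.05 and 0.09. The probe sequences of the RNA, which has no gene name in the tables used, are given for identification in mm9.
At chr19:5834543-5834602: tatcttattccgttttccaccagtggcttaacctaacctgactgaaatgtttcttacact
At chr19:5834603-5834662: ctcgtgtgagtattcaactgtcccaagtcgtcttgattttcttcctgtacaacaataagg
At chr19:5834857-5834916: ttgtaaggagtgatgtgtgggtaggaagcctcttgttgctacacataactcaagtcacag

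**Figure D4:**
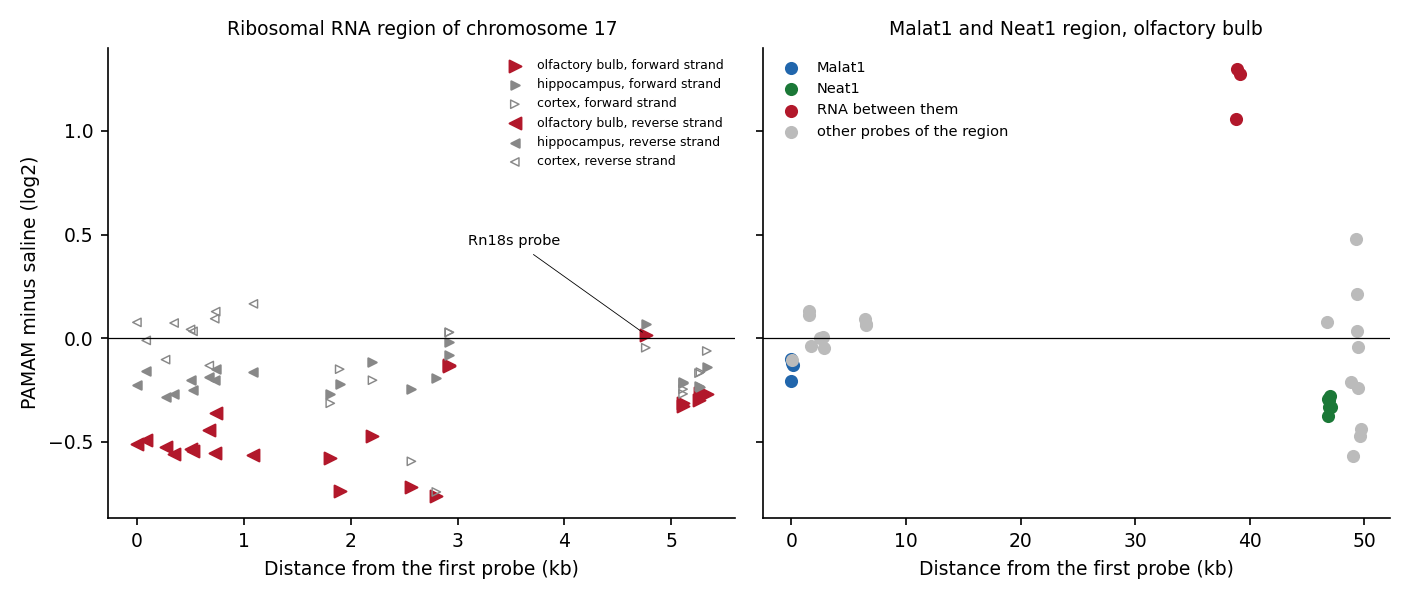
Log2 difference, PAMAM minus saline, against distance from the first probe in kb. Left, the 23 probes of the ribosomal RNA region, pointing right for the forward and left for the reverse strand, in the olfactory bulb (red), hippocampus (grey) and cortex (open). Right, measured probes of the Malat1 and Neat1 region in the olfactory bulb, where the 3 probes of the RNA between them lie from 1.06 to 1.30.

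Agreement of separate probes was then used to sort genes. Of 6779 genes with several measured probes, 4 (0.059%) were higher by 1.5-fold or more on every probe and 8 (0.118%) were lower by that much on every probe. With normexp background there were 2 higher and 2 lower. The sign was shared by all probes in 50.4% of these genes. Across 6501 genes with probes that do not overlap, the differences of the first and last probe by chromosome position correlated with r = 0.16. Over the 1849 of these genes where every measured probe was bright, r was 0.41. Probes of a gene share the arrays and, where isoforms differ, not the transcript. Of 152 genes whose first probe passed 1.5-fold, the last probe had the same sign in 90 and passed 1.5-fold the same way in 13. A single probe past 1.5-fold was thus matched by its partner in few genes.

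Genes that held on several probes came from varied functions. Mnd1, a meiotic recombination factor, had 0.300 and 0.124 on the PAMAM array and 0.0858 and 0.0496 on the saline array for its 2 probes, differences of 1.81 and 1.33. Igf2bp2, which binds and stabilises mRNAs, had 0.267 and 0.108 with PAMAM and 0.136 and 0.0536 with saline (0.98 and 1.02). Fggy, a carbohydrate kinase, was higher on 3 measured probes (0.58, 0.76 and 0.88). Pde10a, the phosphodiesterase of striatal neurons, had 2.47 and 0.757 with PAMAM and 1.52 and 0.459 with saline (0.70 and 0.72). In the same order, its probes were at 0.15 and 0.08 in the hippocampus and at -0.12 and -0.33 in the cortex. The membrane remodelling gene Ehd2 followed at 0.41 and 0.53, and both Dmkn (0.47 and 0.86) and Crybb1 (0.45 and 0.46) were read by overlapping probes. The other 5 of the 12 highest by this rule were unnamed RNAs, the one on chromosome 19 among them. With normexp background Mnd1 was at 0.72, Igf2bp2 at 0.48, Fggy at 0.26, Dmkn at 0.37, Ehd2 at 0.25 and Crybb1 at 0.25.

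Among the lower genes, Xlr3b, an X-linked imprinted gene, had 0.0557 and 0.101 on the PAMAM array and 0.148 and 0.285 on the saline array, differences of -1.41 and -1.49. Serpina1a was at -1.34 and -1.37. Art5 (-0.80 and -1.03), Abhd15 (-0.88 and -0.70), Urah (-0.72 and -0.63) and Ifi203, an interferon-inducible gene (-0.61 and -0.65), were dim on all of these probes. Foxo6, a forkhead factor of the forebrain, was at -0.59 on a bright probe and -0.63 on a dim one. Dbp, an output gene of the circadian clock, had 21.0 and 16.8 with PAMAM and 31.0 and 24.5 with saline (-0.57 and -0.55). It was lower in the hippocampus (-0.39 and -0.46) and the cortex (-0.32 and -0.45) as well. Overlapping probes of Chaf1b (-0.56 and -0.78) and Padi2 (-0.57 and -0.56), an X-linked RNA (-0.59 and -0.65) and a reverse-strand transcript of the ribosomal RNA region complete the 12. With normexp background Xlr3b was at -0.85, Serpina1a at -0.90, Art5 at -0.48, Abhd15 at -0.33, Urah at -0.41, and Ifi203 and Foxo6 at -0.39.

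Some bright or large values rest on 1 array that stands apart from the others. Uqcrc1, a core subunit of respiratory complex III, had 7.43 on the PAMAM array and 2.22 on the saline array, a difference of 1.75. The hippocampus and cortex arrays read 9.01 to 9.50 for this probe, so the saline bulb array is the low one. The other measured genes of complexes III and IV ran from Cox8b at -0.44 to Cox6b2 at 0.24. Slc16a7, a monocarboxylate transporter, had 0.927 with PAMAM and 0.153 with saline (2.60, and 1.08 with its dim probe included), while the other 4 arrays read 0.143 to 0.169. Blm, a DNA helicase, had 0.402 with PAMAM and 51.1 with saline (-6.99), and 0.284 to 0.335 elsewhere. Nap1l4, a histone chaperone, was at -4.45 on a probe with 0.0269 for PAMAM and 0.589 for saline, and at -0.01 on another. Slc16a7, Blm and Nap1l4, and Isoc2b and H2ac8 described after them, were chosen after their values were seen.

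Of the 103 probes at least 2-fold different, 55 were above background on all 6 arrays. In 14 of these the PAMAM bulb array lay at least 2-fold outside the range of the other regions' 4 arrays and the saline bulb array under 1.5-fold outside it, among them Egr4, Arc and Slc16a7. The saline bulb array stood out by the same rule in another 14. Among these were Uqcrc1, Blm, 3 Mup genes and 2 probes of the RNA on chromosome 19. The 4 arrays are of other regions, so the rule cannot tell an array that stands apart from a level that differs between regions. Those 2 chromosome 19 probes were higher with PAMAM in the hippocampus and cortex too. Isoc2b, whose function is little known, had 0.877 with PAMAM and 0.343 with saline (1.35), and it was higher in the hippocampus (0.91) and the cortex (0.79) too.

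Further bright genes with a single measured probe were smaller in size. Higher were Bglap2, an osteocalcin copy (0.55), Dixdc1, a Wnt pathway gene (0.54, but -0.038 with its dim probes included), the unnamed 4833405L11Rik (0.55) and 2 unnamed probes (0.57 and 0.55). Lower beside the first-wave genes were Syt10, a synaptotagmin of bulb neurons, with 1.06 on the PAMAM array and 1.89 on the saline array (-0.84), the RNA named EU616813 with 0.764 for PAMAM and 1.36 for saline (-0.83) and an RNA read by a probe at 52062194 to 52062253 of mm9 chromosome 6 (-1.12). That last value came from 1 of 6 probes, and the others were not above background.

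Melanin synthesis genes included the largest higher difference of any measured gene. Dct, dopachrome tautomerase, had 0.599 on the PAMAM array and 0.0747 on the saline array, a difference of 3.003, and its second, overlapping probe was at least 7.14-fold higher. In the hippocampus and cortex the Dct probes were above background on at most 1 array. Pmel, the melanosome matrix protein, was at 0.83 and Mlana, a melanosome protein, at 0.81, both dim. With normexp background Dct was at 1.99, Pmel at 0.45 and Mlana at 0.21. Tyrp1, another melanosomal enzyme, had 1.13 with PAMAM and 1.08 with saline (0.06), and tyrosinase (Tyr) was at -0.20. The list of 8 measured genes thus had a median of 0.09, with 3 members at least 1.5-fold higher, against 0.489% of all genes. With normexp background Dct was the only one of these 3 past 1.5-fold. BALB/c mice are albino.

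Markers of the bulb's own neurons lay close to 0. Granule cell markers ran from -0.24 to 0.03 (median -0.02, 3 of 16 higher), with Gad1, which makes GABA, at 42.8 for PAMAM and 47.2 for saline (-0.14). Mitral and tufted cell markers had a median of -0.03 (3 of 12 higher), and Tbr1, a factor of glutamatergic neurons, was the exception at -0.49 over 2 probes. Periglomerular markers had a median of -0.02. Th, the enzyme of dopamine synthesis, had 29.5 with PAMAM and 32.8 with saline (-0.15). Migrating neuroblast markers had a median of 0.00 (6 of 12 higher) and those of sensory neuron axons 0.01 (8 of 15). Omp, the marker protein of mature olfactory sensory neurons, had 41.2 with PAMAM and 44.6 with saline (-0.11).

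Marker lists for cells of tissue next to the bulb had medians further below 0. The lists are not exclusive to that tissue: Tbr1 is counted both in the cortical list and among mitral and tufted cell markers. Cortical and forebrain excitatory neuron markers were lower in 10 of 12 (median -0.20), with Bhlhe22 at -0.66 and Neurod6 at -0.40. The 3 bright members had a median of -0.26, while bright probes only, taken before the median of each gene, gave -0.038. Striatal neuron markers were lower in 8 of 11 (median -0.17), led by the dopamine receptor Drd2 at -0.69, with Pde10a at 0.71 against them. The 3 bright striatal markers had a median of -0.05. Olfactory epithelium supporting cell markers were lower in 6 of 7 (median -0.16), with Bpifb3 at -0.58 against Cyp2g1 at 0.54. Of these 7, 0 were bright. Beside these values, the dimmest of 10 equal classes of all measured probes had a median of -0.08. The part of neighbouring tissue in the values above was not tested.

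Among glia, oligodendrocyte markers were lower in 16 of 21 (median -0.12), with Opalin at -0.31. Ensheathing glia, which wrap the sensory axons, had 10 of 11 markers lower (median -0.11), with Erbb3 at -0.37 and Cdh19 against them at 0.49. Astrocyte markers were balanced (9 of 17 higher, median 0.02). Microglia markers were higher in 19 of 23 (median 0.09), from Aif1 at -0.09 to Cd53 at 0.33, and complement genes in 12 of 15 (median 0.12, and 0.06 with normexp background). Gene values of the complement family ran from -0.42 to 0.47. Against its median, a dim probe of the complement gene C3 was at -0.68 (SE 0.05 over 10 spots). Endothelial (0.03), meningeal (-0.03), choroid plexus (-0.02), red blood cell (0.05) and leukocyte (-0.03) medians lay near 0.

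**Figure D5:**
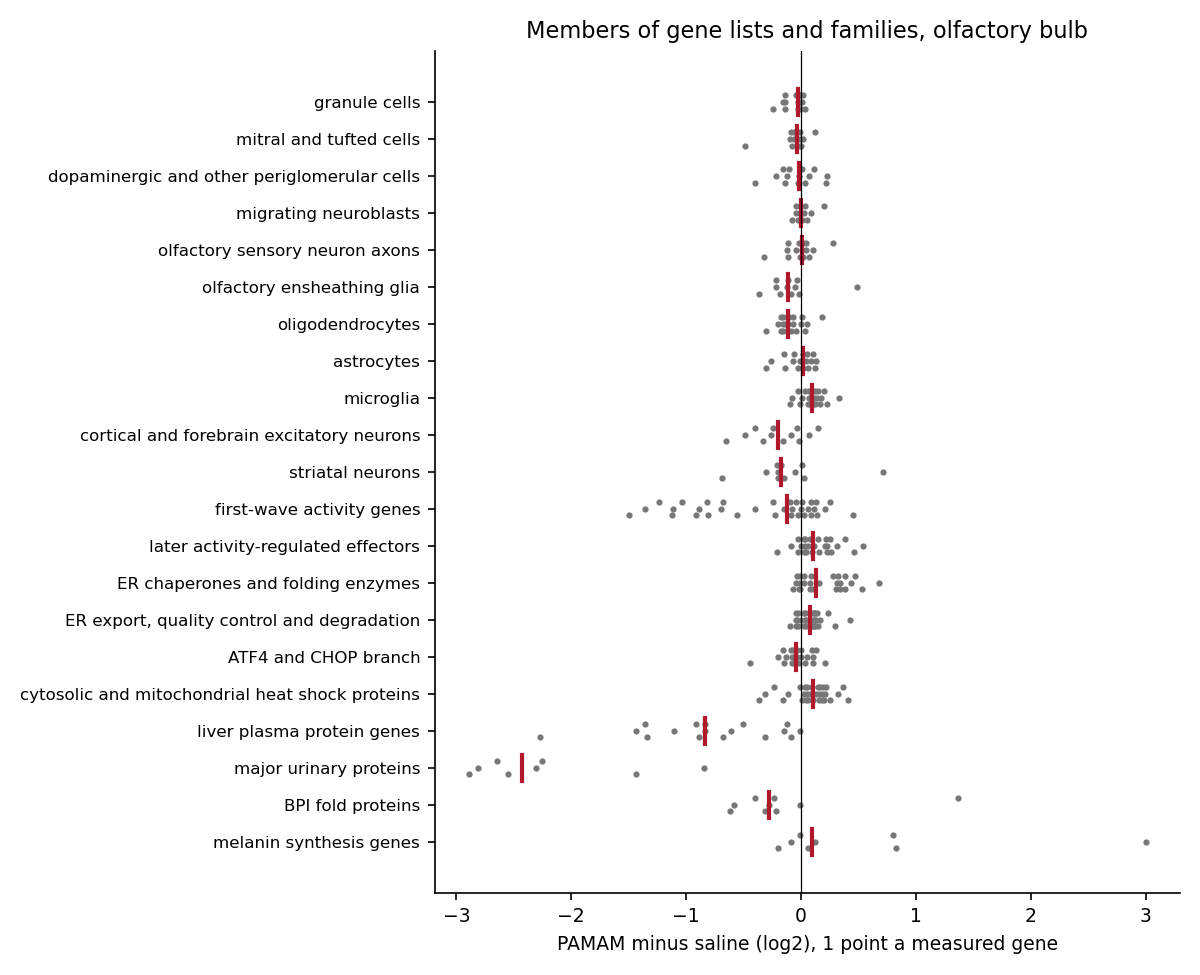
Each point is a measured gene, placed by its log2 difference, PAMAM minus saline, in the olfactory bulb, and red bars are the medians of each list. Bulb neuron markers cluster at 0, first-wave activity genes reach -1.49, and major urinary protein genes have a median of -2.43.

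Other families showed small shared shifts or none. Cytosolic ribosomal proteins were higher in 77 of 96 genes and mitochondrial ones in 52 of 78, with a median of 0.04 for each. Aldehyde dehydrogenases were lower in 15 of 21 (median -0.15), Wnt ligands and receptors in 24 of 32 (median -0.13, with the Wnt inhibitor Wif1 at 0.62 against them) and genes of cholesterol and fatty acid synthesis in 27 of 33 (median -0.09), among them Fdft1 at -0.42 and Hmgcs1 at -0.26. BPI fold proteins, secreted lipid-binding proteins of the airway and nose, were lower in 8 of 9 (median -0.28), whereas Bpifa6 had 0.320 with PAMAM and 0.124 with saline (1.37). With normexp background the BPI median was -0.16 and Bpifa6 was at 0.84. Cytokine and NF-kB genes were higher in 8 of 21 (median -0.01) with Cxcl10, a chemokine, at 0.57. Polyamine metabolism genes, which handle small amines of the cell, were higher in 11 of 18 (median 0.04), with Atp13a3 at 0.31 and Arg2 at -0.49. NRF2 targets (median 0.00) and interferon-stimulated genes (median -0.04) lay near 0. Of 1103 odorant receptor genes on the array 124 were measured, 50 of them higher (median -0.05).

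Transcripts detected on 1 array only gave bounds. Well above background on the PAMAM array alone were 2641 probes, and on the saline array alone 291. The lowest value well above background was 0.0247 on the PAMAM array and 0.0343 on the saline array. Detection thus reached dimmer probes on the PAMAM array, and these counts are not on equal terms. The bound reached 2-fold in 49 of the PAMAM-only and 101 of the saline-only probes. H2ac8, a replication-dependent histone gene, was at least 34.5-fold lower, with 0.00728 on the PAMAM array and 0.852 on the saline array. An unnamed RNA of the X chromosome (probe at 165806664 to 165806723 in mm9) was at least 33.5-fold higher, with 1.15 for PAMAM and 0.0272 for saline. Each of these rests on 1 probe.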

How the data were processed

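RNA from the olfactory bulb of PAMAM and saline mice was measured on 1-colour Agilent arrays, 1 per group, and the arrays of hippocampus and cortex served for side-by-side values. Per the file headers, each deposited file gives linear spot intensity that Agilent Feature Extraction 10.7.3.1 corrected for background; the scanner was a G2505C and the array design 028005. The 6 arrays share 1 slide. Groups came from the labels. The number of arrays limits the precision: with 1 pool a side there is no test, and spot noise was taken from 399 probes spotted 10 times on each array.

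A value table in log2 units was deposited too. Its column medians were -0.06 for PAMAM and -0.09 for saline bulb, 0.03 for PAMAM and -0.05 for saline hippocampus, and 0.03 for PAMAM and 0.04 for saline cortex. Over 29549 probes it equalled the scaled log2 scanner values centred on each probe's median, with a largest residual of 0.0233. Its scale, centring and direction were settled by that match, and its treatment of repeated spots is not given in the sources used here.

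Control spots and spots with an outlier mark (99 on the PAMAM and 91 on the saline array) were left out. The processed signal was divided by each array's 75th percentile (709.6 for PAMAM and 679.1 for saline), log2 values were taken and spots of a probe averaged. Bright means a scaled signal above 0.444 on the PAMAM and 0.541 on the saline array. Names came from the files, updated through RefSeq (GRCm38.p6): 27235 of 55681 probes matched and 28446 kept the file's name. Probe coordinates are mm9, and promoters come from RefSeq.

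Members and lists (37 lists, 85 families) were chosen with earlier results of these data known. Genes were named by rule: the 12 highest and 12 lowest among genes whose several probes shared a sign, ranked by their smallest probe difference; the 8 highest and 8 lowest bright genes with 1 probe; up to 4 members a list in the direction of its median and the largest against it; and members that show a role in the activity, stress and bulb cell lists. Alternatives were normexp background (limma 3.58.1 in R 4.3.3, offset 50), quantile normalization, another scaling percentile, bright probes only, no filter, outlier spots kept, the deposited table and the brightest probe per gene. Other steps used Python 3.11.15, pandas 2.3.3 and numpy 2.4.6, and scripts were tested on simulated data.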

Additional observations from a re-analysis of the deposited data

Results flagged for a closer look

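Of 69 genes examined (those named by rule and the measured first-wave genes), 3 were lower in the olfactory bulb and higher in the cortex by at least 1.5-fold each way. The differences between regions were not tested. Fosb was at -0.82 in the bulb and 0.68 in the cortex, where it had 2.09 with PAMAM and 1.31 with saline. Syt10 was at -0.84 in the bulb and 1.18 in the cortex, where it had 3.28 with PAMAM and 1.44 with saline. EU616813 was at -0.83 in the bulb and 1.14 in the cortex, where it had 2.60 with PAMAM and 1.18 with saline.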

How the results depend on the processing

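Of 118 results, 1 changed sign: Dixdc1, at 0.54, was at -0.038 without the filter on dim probes, which brings in its dim probes. All 20 list medians kept their sign under each alternative (18 of 18 with bright probes only, where the other lists had too few members). Normexp background, whose offset shrinks dim values, gave 9 probes higher and 25 lower by 2-fold, 2 genes higher and 2 lower on every probe, and medians of -1.80 for major urinary proteins, -0.36 for liver genes, -0.64 for Egr and Nr4a and -0.16 for BPI fold proteins. Bright probes only, by construction fewer, gave counts of 1 higher and 8 lower probes and of 0 and 0 genes, with medians of -0.12 for liver genes, -0.67 for Egr and Nr4a, -0.23 for Fos and Jun and -0.038 for cortical markers. Without the filter on dim probes the counts were 1488 and 1627 probes and 34 and 37 genes, and the medians were -2.31 for major urinary proteins, -1.12 for liver genes, -0.67 for Egr and Nr4a and -0.23 for Fos and Jun. The brightest probe per gene gave -0.61 for liver genes. Of 94 named genes, 56 moved by more than the single-spot SD of 0.09 under normexp, 10 with the brightest probe, 10 without the filter and 0 under the other settings. No setting moved the median of all probes past -0.04. No paired analysis was possible because the bulb has 1 array per group; a fit paired by region would give an effect shared by the regions and was not run. Signal over background limits what can be said of dim probes, whose differences spread widest.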
